A study of Mus musculus with 18 samples.

Results

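Interferon gamma (IFN-γ) and the first steps of its signal were followed through 5 genes, the cytokine Ifng, the receptor chains Ifngr1 and Ifngr2, and the receptor-bound kinases Jak1 and Jak2, out of 53509 genes listed in the 3 count tables of the series. The genes were chosen by symbol, as the ligand, its receptor and the Janus kinases that the receptor carries, and all 5 passed the filter on low counts in every comparison. The 18 RNA-seq libraries came from double negative T (DNT) cells of the mouse, T cells without CD4 or CD8, which had been obtained by converting CD4+ T cells of wild type spleen and lymph node. The cells of all groups were stimulated with antibodies to CD3 and CD28, and the question was what extracellular ATP and adenosine do to them. WTATPgs cells received 400 µM ATPgs, an ATP analogue that resists hydrolysis, and were set against WT cells without ligand (set 1). ADO cells received 400 µM adenosine and were set against DNT cells without ligand (set 2). RA cells received 400 µM adenosine together with 250 nM of a blocker of the adenosine A2a receptor (A2aR), and were set against R cells with the blocker alone (set 3). The ligands acted for 6 h, each group had 3 libraries, and the labels give no age for the animals. Whether the 3 libraries of a group came from different cultures or animals is not stated in the labels, and p-values then reflect only how far these libraries spread, which may be technical.

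IFN-γ is the main cytokine with which T cells and natural killer cells activate macrophages and raise antigen presentation. It binds IFNGR1, the ligand-binding chain, which carries JAK1, and the complex is completed by IFNGR2, the signalling partner chain, which carries JAK2. The kinases activate each other and start the signal to the nucleus, and many target genes hold a gamma-activated sequence (GAS). In T helper cells that make IFN-γ, loss of the IFNGR2 chain is known to limit the response to their own cytokine. In T cells adenosine acts largely through the A2a receptor, which raises cyclic AMP and is known to restrain cytokine production.

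Total counts ran from 20156082 to 24331577 per library. Replicate 3 of WTATPgs and replicate 3 of R stood apart from the rest. A chi-square comparison of counts gave 1.65 per degree of freedom between WTATPgs replicates 1 and 2, but 25.3 and 25.4 between either of them and replicate 3. Between R replicates 1 and 2 it gave 43.8, and between R replicate 3 and these it gave 91.2 and 210. R replicates 1 and 2 thus also differed, and fits without R replicate 3 rest on these unlike R libraries. The values were 3.88 to 6.81 between the RA replicates and 1.87 to 2.38 within WT, DNT and ADO. R replicate 3 also had the largest share of mitochondrially encoded counts, 5.47%, against 3.14% as the lowest R value and 3.71% to 3.95% in RA, and ribosomal protein genes took 15.1% of its counts. Some of the results that rest on these libraries are also given without them. The T cell gene Cd3e averaged 64.7 to 168 CPM (a gene's count relative to the library total, scaled within a set by the trimmed mean of M values) over the 6 groups, Cd4 0.413 to 9.33 CPM and Cd8a 5.66 to 23.5 CPM, so that transcripts of both coreceptors were low beside Cd3e but above 0.

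The proximal promoters of Ifng, Ifngr1 and Jak1 are shown because these genes made the largest fall, the largest rise and the smallest change of the 5 with adenosine. Sequences are the 250 bases before the RefSeq start on GRCm38.p6, 5′ to 3′ on the gene's strand, with motif matches in capitals. They lie at chr10:118440796-118441045 (plus strand) for Ifng, at chr10:19591699-19591948 (plus strand) for Ifngr1 and at chr4:101265224-101265473 (minus strand) for Jak1.
Ifng: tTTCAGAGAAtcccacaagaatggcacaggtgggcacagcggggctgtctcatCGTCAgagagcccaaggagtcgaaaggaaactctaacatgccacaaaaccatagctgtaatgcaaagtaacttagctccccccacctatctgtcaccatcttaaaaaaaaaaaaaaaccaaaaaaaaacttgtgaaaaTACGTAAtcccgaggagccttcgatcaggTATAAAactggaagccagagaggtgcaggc
Ifngr1: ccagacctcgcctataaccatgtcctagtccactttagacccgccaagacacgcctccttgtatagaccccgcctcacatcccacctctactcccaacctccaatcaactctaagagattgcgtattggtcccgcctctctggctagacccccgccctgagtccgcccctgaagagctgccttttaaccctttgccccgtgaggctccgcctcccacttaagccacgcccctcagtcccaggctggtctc
Jak1: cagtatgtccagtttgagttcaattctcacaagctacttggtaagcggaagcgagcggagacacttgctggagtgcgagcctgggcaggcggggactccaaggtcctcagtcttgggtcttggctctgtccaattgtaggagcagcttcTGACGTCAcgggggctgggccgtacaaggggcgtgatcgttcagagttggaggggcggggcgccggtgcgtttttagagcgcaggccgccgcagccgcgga
Capitals in Ifng mark, in order, the GAS form TTCNNNGAA, the short cyclic AMP response element (CRE) TGACG read on the opposite strand, TACGTAA and the TATA box TATAAA. The third of them is the core of the proximal Ifng element that CREB, ATF and Jun factors are known to bind, and that motif was added to the search after the promoter had been read. In Jak1 the capitals mark the full CRE TGACGTCA, whose letters also give both matches to the short form.

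Motifs were searched on both strands in all 5 promoters, and each of the 5 had an entry in the promoter table. Among 32851 promoters of the same length, TTCNNNGAA was present in 7.02%, TGACG in 17.8%, TGACGTCA in 1.55%, TATAAA in 12.4% and TACGTAA in 0.432%. The AP-1 form TGANTCA (6.75% of promoters) and the interferon-stimulated response form, in which a pair of GAAA are parted by NN (2.98%), had no match in any of the 5. No motif of the 7 had a match in the windows of Ifngr1, Ifngr2 or Jak2, which says only that these letters are absent from those windows. A match is a description of the letters and no evidence of binding.

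Ifng mRNA is known for rapid decay through AU-rich elements in its 3′ untranslated region. The annotated region of 631 bases held 6 copies of the pentamer ATTTA, or 9.51 per kb, a density reached by 1.28% of 20659 genes. Ifngr1 held 0 copies in 541 bases, Ifngr2 6 in 2618, Jak1 4 in 1128 and Jak2 2 in 1232. The densest stretch of the Ifng region, with 3 copies in capitals, lies at chr10:118445330-118445359 (plus strand, GRCm38).
Ifng AU-rich site: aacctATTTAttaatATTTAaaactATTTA

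Ifng (ENSMUSG00000055170, chromosome 10, 118441046 to 118445892, plus strand, GRCm38) fell with either ligand. With ATPgs its level was 378, 359 and 509 CPM in the WTATPgs libraries, against 1082, 1015 and 1063 CPM in the WT libraries. All WTATPgs libraries were below all WT libraries, and the highest of them was replicate 3. The log2 fold change was -1.34 ± 0.14 (SE; 95% interval -1.70 to -0.98), which left 39.4% of the WT level (edgeR quasi-likelihood test, Benjamini-Hochberg adjusted p = 0.00132), and only 0.879% of the 15124 genes tested had a lower fold change.

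With adenosine alone, Ifng was at 628, 595 and 580 CPM in ADO, against 1505, 1483 and 1530 CPM in DNT. The groups lay far apart and each varied little. The log2 fold change was -1.32 ± 0.02 (SE; adjusted p = 6.97e-26), or 39.9% of the DNT level, and 0.744% of 14512 genes had a lower one. With the A2aR blocker present, Ifng was at 1853, 1940 and 1976 CPM in RA, against 2237, 1797 and 4209 CPM in R. R replicate 3 stood far above every other library and R replicate 2 lay below all RA libraries, so the groups overlapped. The log2 fold change of -0.52 ± 0.30 (SE; 95% interval -1.19 to 0.16) did not pass the test (adjusted p = 0.568), and without R replicate 3 it was -0.07 ± 0.14 (adjusted p = 0.758). A transcript model awaiting experimental support, Gm49751, shares 336 exon bases with Ifng on the same strand. It had at most 565 counts in a library, where Ifng had 8233 or more. How reads in the shared bases were counted is not known, so these counts do not bound their number.

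**Figure D1:**
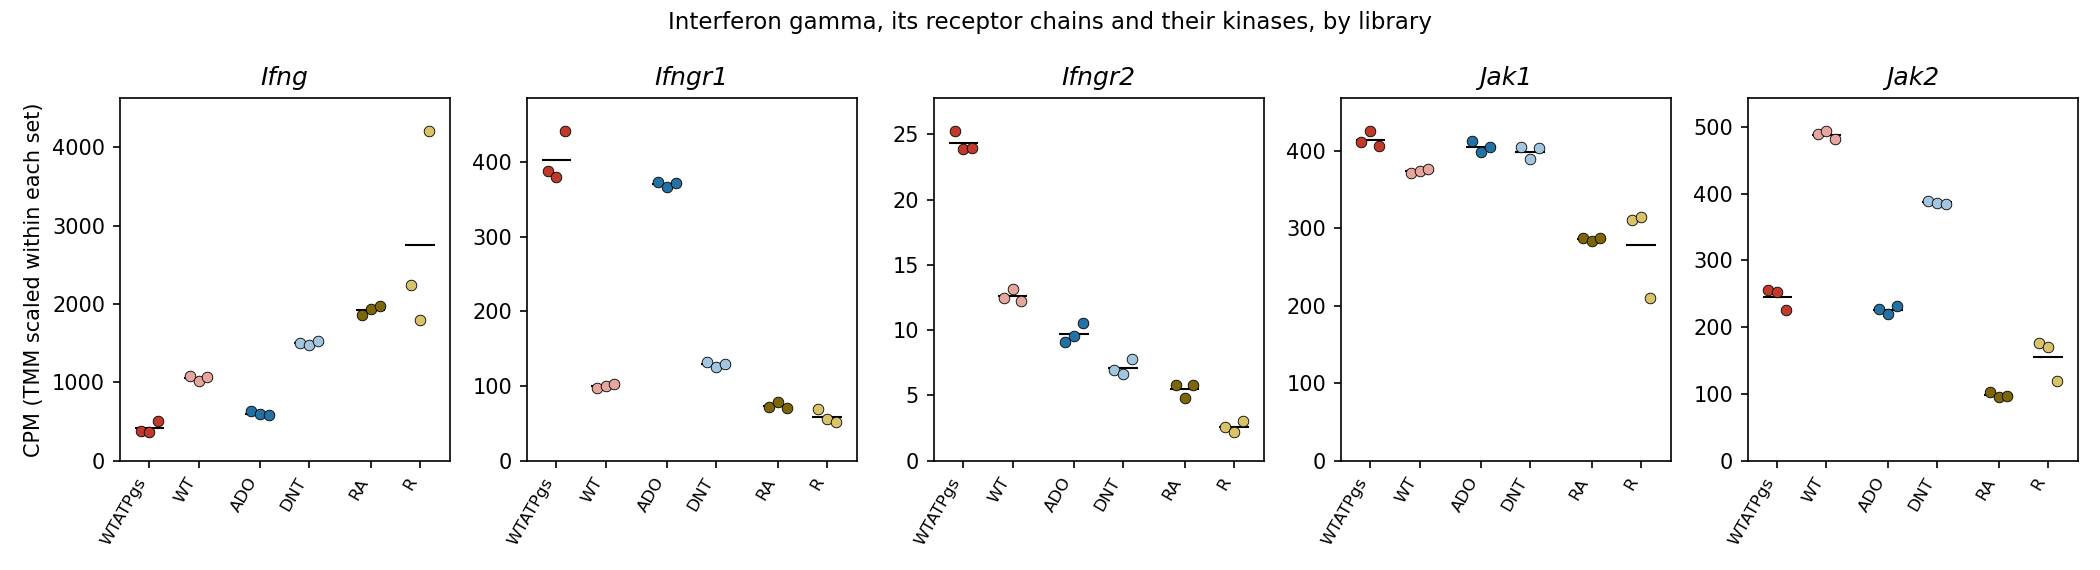
Level of each of the 5 genes in every library, in CPM scaled within a set on axes that start at 0, so that heights in different sets are not on a common scale. Points are libraries, bars are means of 3, and in each set the ligand-treated group is left of its own control. Ifng lies at 359 to 509 CPM in WTATPgs, against 1015 to 1082 CPM in WT, while in set 3 R replicate 3 reaches 4209 CPM.

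Ifngr1 (ENSMUSG00000020009, chromosome 10, 19591949 to 19610229, plus strand), the ligand-binding chain, moved the opposite way to its ligand. It was at 388, 381 and 442 CPM in WTATPgs, against 97.7, 101 and 102 CPM in WT. The groups did not overlap, and the rise was 4.03-fold (log2 2.01 ± 0.06 SE, adjusted p = 3.50e-07, edgeR), with 99.1% of genes below it. Ifngr1 was at 373, 367 and 373 CPM in ADO, against 132, 125 and 130 CPM in DNT. This rise was 2.87-fold (log2 1.52 ± 0.03 SE, adjusted p = 4.99e-43), again without overlap.

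With the A2aR blocker, Ifngr1 was at 72.0, 78.3 and 69.9 CPM in RA, against 69.1, 55.9 and 51.6 CPM in R. All RA libraries were above all R libraries, but by less than 1 CPM between the nearest pair. The log2 difference of 0.32 ± 0.17 (SE; 95% interval -0.05 to 0.69) did not pass the test (adjusted p = 0.489). It passed in 1 of 15 alternatives and was 0.23 to 0.45 with a library left out.

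Ifngr2 (ENSMUSG00000022965, chromosome 16, 91547072 to 91565623, plus strand), the chain that brings JAK2 to the complex, was the least abundant of the 5. It was at 25.3, 23.87 and 23.96 CPM in WTATPgs, against 12.5, 13.1 and 12.3 CPM in WT. This was a 1.93-fold rise without overlap (log2 0.95 ± 0.07 SE, adjusted p = 2.60e-05). It was at 9.09, 9.52 and 10.6 CPM in ADO, against 6.95, 6.63 and 7.77 CPM in DNT, a smaller rise of 1.37-fold (log2 0.45 ± 0.11 SE, adjusted p = 4.01e-04). The ranges again did not overlap.

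Ifngr2 was the single member past the threshold with the blocker present. It was at 5.81, 4.81 and 5.77 CPM in RA, against 2.56, 2.19 and 3.01 CPM in R. The raw counts were 124, 110 and 134 in RA and 51, 54 and 51 in R, so counting error is larger here than for any other member. The rise was 2.12-fold (log2 1.08 ± 0.21 SE, 95% interval 0.61 to 1.56) and passed narrowly (adjusted p = 0.0463). Without R replicate 3 the adjusted p was 0.00268, and it lay between 6.40e-05 and 0.285 over 15 alternatives, of which 9 lost the call.

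Jak2 (ENSMUSG00000024789, chromosome 19, 29251828 to 29313080, plus strand), the kinase of IFNGR2 and of several other cytokine receptors, fell with either ligand. It was at 256, 253 and 226 CPM in WTATPgs, against 489, 494 and 482 CPM in WT, which is 50.2% of the WT level (log2 -0.99 ± 0.05 SE, adjusted p = 4.32e-06). It was at 226, 220 and 232 CPM in ADO, against 390, 387 and 384 CPM in DNT, or 58.5% of the DNT level (log2 -0.77 ± 0.02 SE, adjusted p = 3.64e-32). Neither pair of groups overlapped. With the blocker, Jak2 was at 102, 94.96 and 96.8 CPM in RA, against 177, 170 and 119 CPM in R. All RA libraries were below all R libraries, with R replicate 3 nearest to them. The log2 difference of -0.66 ± 0.19 (SE) did not pass the test over all libraries (adjusted p = 0.146), and it was -0.82 ± 0.11 (adjusted p = 4.10e-04) without R replicate 3.

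Jak1 (ENSMUSG00000028530, chromosome 4, 101152367 to 101265282, minus strand), the kinase bound to IFNGR1, changed least. It was at 411, 425 and 406 CPM in WTATPgs, against 372, 373 and 376 CPM in WT. The groups were apart by 1.11-fold (log2 0.15 ± 0.03 SE, adjusted p = 0.00811). Jak1 was at 412, 398 and 405 CPM in ADO, against 404, 389 and 403 CPM in DNT, and these ranges overlapped (log2 0.02 ± 0.02 SE, 95% interval -0.02 to 0.07, adjusted p = 0.402). It was at 287, 284 and 287 CPM in RA, against 310, 314 and 209 CPM in R, where R replicate 3 was the lowest of the 6 (log2 0.04 ± 0.19 SE, adjusted p = 0.964).

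Of the 5 members, 5 passed the test with ATPgs, where 37.1% of all genes tested did. With adenosine 4 of 5 passed, where 50.2% of all genes did, and with adenosine under the blocker 1 of 5 passed, where 1.14% did. Without WTATPgs replicate 3 the count with ATPgs was again 5, and without R replicate 3 the count under the blocker was 2. Both of these fits also called more of all genes than the fits of every library. Calls were common enough in sets 1 and 2 that being called says little about a gene. The median size of a change over all genes was 0.239 with ATPgs and 0.208 with adenosine on the log2 scale. Both lay below the sizes for Ifng, Ifngr1, Ifngr2 and Jak2. Under the blocker this median was 0.195. The common biological coefficient of variation of edgeR, a measure of spread within groups, reached 19.6% under the blocker. It was 2.74% with adenosine alone and 10.6% with ATPgs. A wider spread leaves fewer calls at the same size of change. Few calls under the blocker, here or in the lists below, therefore do not by themselves show a smaller response. These were bulk libraries, in which fewer cells of a type and less RNA per cell cannot be told apart.

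**Figure D2:**
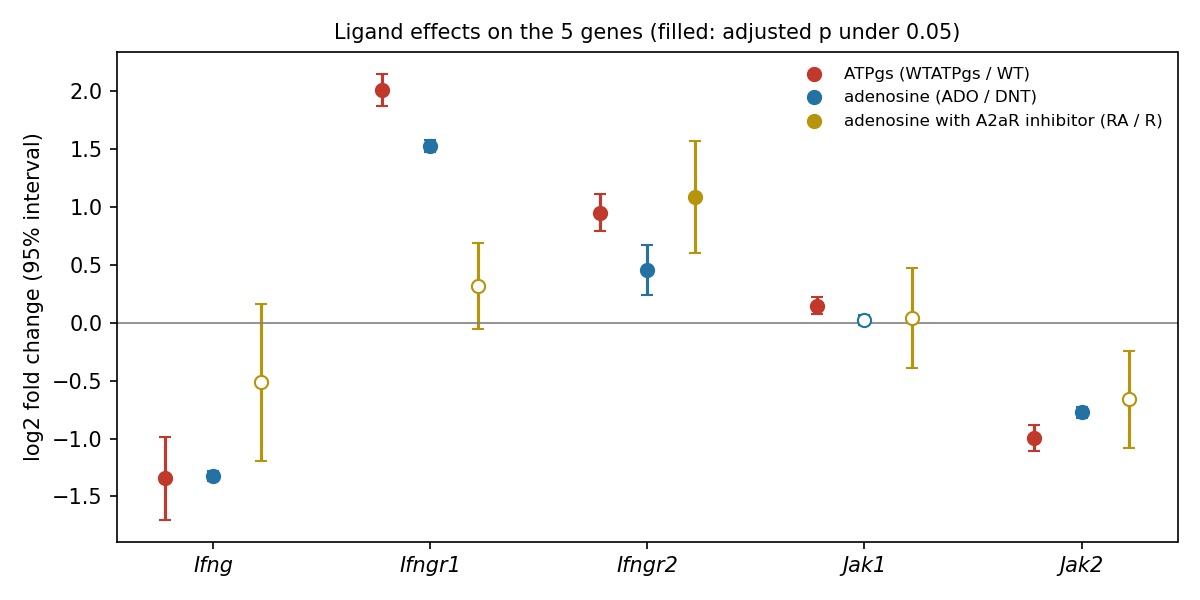
Log2 fold change of each of the 5 genes with ATPgs, with adenosine and with adenosine plus the A2aR blocker, each against the control of its own set. Bars are 95% intervals. Ifng is at -1.34 and -1.32 and Ifngr1 at 2.01 and 1.52 with ATPgs and adenosine, and the intervals of Ifng and Ifngr1 with the blocker include 0.

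The question whether the adenosine effect differed with the blocker was tested directly, as the difference of both effects in 12 libraries. For Ifngr1 the difference was -1.22 ± 0.14 on the log2 scale (SE; 95% interval -1.52 to -0.92, adjusted p = 3.52e-04). It was the only member called, where 4.06% of all genes were. With a library left out the Ifngr1 difference was -1.27 to -1.12. For Ifng the difference was 0.77 ± 0.36 (95% interval -0.02 to 1.55, adjusted p = 0.301). Without R replicate 3 it was 1.30 (adjusted p = 1.71e-06). The Ifng call was gained in 2 of 21 alternatives. These were the fit without R replicate 3 and limma-voom with quality weights per group, which kept every library. The differences were 0.62 ± 0.22 for Ifngr2 (adjusted p = 0.147), 0.10 ± 0.16 for Jak2 (adjusted p = 0.815) and 0.01 ± 0.16 for Jak1 (adjusted p = 0.987). Without R replicate 3, Ifngr2 passed at 0.80 (adjusted p = 0.0118). The adenosine effects with and without blocker come from different sets, so the blocker and the set cannot be told apart.

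The ATPgs and adenosine effects were compared in the same way and differed for 4 of the 5 members, where 17.3% of all genes differed, 8.13% upward and 9.12% downward. ATPgs raised Ifngr1 by 0.49 ± 0.07 more on the log2 scale (adjusted p = 2.53e-04) and Ifngr2 by 0.50 ± 0.12 more (adjusted p = 0.00931). It lowered Jak2 by a further 0.22, the difference being -0.22 ± 0.05 (adjusted p = 0.00887), and Jak1 differed by 0.13 ± 0.04 (adjusted p = 0.0330), a call lost in 12 of 21 alternatives (adjusted p up to 0.837). The fall of Ifng differed by -0.0097 ± 0.17 (95% interval -0.40 to 0.38, adjusted p = 0.980). Without WTATPgs replicate 3 that difference was -0.20 (adjusted p = 0.00669). Both difference tests use the same DNT and ADO libraries, and the ligands were tested in different sets, so ligand and set cannot be told apart here either.

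Ratios between partner genes of the same library do not depend on how libraries were scaled. Per kb of exon, Ifngr1 was above Ifngr2 by 20.3, 21.1 and 24.4 times in WTATPgs, against 10.4, 10.1 and 11.02 times in WT. With adenosine the ratio was 54.4, 51.0 and 46.6 in ADO, against 25.2, 25.01 and 22.1 in DNT. The ratio was higher with each ligand, whereas with the blocker it was lower, at 16.4, 21.5 and 16.03 in RA, against 35.8, 33.7 and 22.6 in R.

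The ratio of Jak1 to Jak2 per kb averaged 1.18 ± 0.07 in WTATPgs and 0.533 ± 0.009 in WT (SD, n = 3 each). It averaged 1.25 ± 0.03 in ADO and 0.717 ± 0.016 in DNT, so that Jak2 was the more abundant of the pair in either control and the less abundant with either ligand. In set 3 it was 1.95, 2.08 and 2.06 in RA, against 1.22, 1.28 and 1.22 in R. R replicate 3, which stood apart in the levels of both kinases, gave the same ratio as R replicate 1 to 3 digits. In none of these pairs of groups did the ranges overlap, and an exact two-sided permutation test of 3 against 3 cannot go below p = 0.1.

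Levels over the 6 groups were ordered on CPM scaled over all 18 libraries and divided by exon length, as a description, since sets were separate tables. Ifng was the most abundant of the 5 per kb in every group, from 276 ± 57.4 CPM per kb in WTATPgs to 2808 ± 1439 in R (SD, n = 3 each). Its order from high to low was R, RA, DNT, WT, ADO, WTATPgs, and only R and RA overlapped. Ifngr1 was at 122 ± 11.4 CPM per kb in WTATPgs and 115 ± 1.15 in ADO, whose ranges overlapped, then followed DNT, RA, WT and R, of which WT and R overlapped. Ifngr2 ran from 5.56 ± 0.16 CPM per kb in WTATPgs through WT, ADO, RA and DNT to 0.901 ± 0.180 in R, and only RA and DNT overlapped. Jak2 ran from 84.1 ± 0.93 CPM per kb in WT through DNT, WTATPgs, R and ADO to 25.9 ± 0.87 in RA, where WTATPgs, R and ADO overlapped as neighbours. Jak1 stayed between 44.8 ± 0.32 CPM per kb in WT and 52.5 ± 0.25 in RA, with every neighbouring pair overlapping except DNT and WT. With scaling by library size only, 1 of the 5 genes, Ifng, kept this order.

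Genes induced by IFN-γ were counted from a list of 35, among them guanylate-binding proteins, immunity-related GTPases and chemokines. Changes given for genes of this and the following lists are log2 fold changes ± SE from the same edgeR fits. With adenosine, where Ifng fell, 24 of 32 tested rose and 5 fell (median log2 0.38), while 25.5% of all genes rose and 24.6% fell. Gbp2, a guanylate-binding protein, rose by 1.32 ± 0.03 on the log2 scale (adjusted p = 1.66e-33) and Gbp7 by 1.05 ± 0.03 (adjusted p = 1.13e-31). Gbp7 averaged 184 ± 7.83 CPM in ADO and 88.5 ± 2.85 CPM in DNT (SD, n = 3 each). The GTPases Ifi47 and Iigp1 rose by 0.86 ± 0.03 and 0.93 ± 0.04.

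With ATPgs, 11 of 34 target genes rose and 4 fell (median log2 0.15), against 17.7% and 19.4% of all genes. Without WTATPgs replicate 3, 15 of 35 rose and 10 fell, where 4186 and 4195 of all 15568 genes did. Serpina3g, a protease inhibitor, fell by 0.65 on the log2 scale (SE 0.04) and Wars, a tryptophanyl-tRNA synthetase, fell by 0.31 (SE 0.04). The transcription factor Irf1 rose by 0.48 ± 0.06 and Gbp3 by 0.52 ± 0.06. Gbp2 changed by -0.18 ± 0.11 with ATPgs and did not pass (adjusted p = 0.264), and its ATPgs effect was lower than its adenosine effect (log2 difference -1.48 ± 0.15, adjusted p = 1.70e-04).

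Under the A2aR blocker 0 of 31 target genes rose and 2 fell in RA, where 0.287% and 0.855% of all genes did. DESeq2 and limma-voom called the same numbers, 7 had an unadjusted p under 0.05, and without R replicate 3 edgeR called 0 and 5, where it called 725 higher and 994 lower of all 13181 genes. Cxcl10, a chemokine that attracts activated T cells, averaged 3.09 ± 0.71 CPM in RA and 10.6 ± 2.09 CPM in R (SD, n = 3 each; log2 -1.78 ± 0.24 SE, adjusted p = 0.00660), and Serpina3g had a log2 change of -1.13 ± 0.19 (adjusted p = 0.0199). The adenosine effect was lower with the blocker than without it for 17 of 32 target genes and higher for 0, where 3.14% and 0.912% of all genes were so. Without R replicate 3 it was lower for 24 and higher for 0, where 1417 and 1633 of all 15390 genes were so. Among them Gbp2 differed by -1.44 ± 0.13 and Cxcl10 by -2.19 ± 0.21.

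Signal transducers and brakes of the pathway were counted from 17 genes. With ATPgs 5 rose and 3 fell (median log2 0.04), where 17.7% and 19.4% of all genes did, so that the share that fell was near that of all genes. Stat3, which many cytokine receptors activate, rose by 1.02 ± 0.05, and the feedback inhibitors Socs3, Socs2 and Socs1 rose by 1.28 ± 0.09, 0.67 ± 0.06 and 0.66 ± 0.08. Socs1, the principal brake on JAK activity at this receptor, averaged 144 ± 1.29 CPM in WTATPgs and 90.8 ± 11.8 CPM in WT (SD, n = 3 each). With adenosine 8 rose and 5 fell (median log2 0.08), where 25.5% and 24.6% of all genes did, among them Stat3 with a rise of 0.98 ± 0.02 and Usp18, a brake of type I interferon signalling, with a rise of 0.44 ± 0.03. Cish, another feedback inhibitor, fell by 0.36 and the phosphatase Ptpn6 fell by 0.34 with adenosine. With the blocker 0 rose and 1 fell (3 at an unadjusted p under 0.05), where 0.287% and 0.855% of all genes did. The gene that fell was Usp18 (log2 -1.62 ± 0.18, adjusted p = 0.00225). Without R replicate 3 the counts were 0 and 5, in a fit that also called more of all genes, as given above.

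Transcription factors known to act on Ifng were counted from 25 tested genes, of which 9 rose and 9 fell with ATPgs (median log2 0.01), where 17.7% and 19.4% of all genes did. With adenosine 7 rose and 15 fell (median log2 -0.13), where 25.5% and 24.6% of all genes did, and the share that rose was near that of all genes. Crem, a cyclic AMP-responsive regulator, rose by 1.53 ± 0.04 with ATPgs and 1.24 ± 0.03 with adenosine. Irf4 fell by 0.74 and 0.93, and Fosl2, a member of the AP-1 family, rose by 1.13 ± 0.08 and 0.47 ± 0.02 with the same ligands. Creb1 rose by 0.66 ± 0.04 with ATPgs, and the NF-κB subunit Rel fell by 0.58 with adenosine. Under the blocker Crem was at 0.46 ± 0.24 and Irf4 at 0.08 ± 0.20, neither past the test (adjusted p = 0.489 and 0.933). Irf4 passed the test of the difference from the effect without blocker (1.003 ± 0.18, adjusted p = 0.00863), while Crem did not pass it (adjusted p = 0.151). T-bet (Tbx21), the activator that defines IFN-γ-producing T cells, lay outside the rule for named genes and was chosen after its values were seen. It averaged 58.8 ± 16.2 CPM in WTATPgs and 134 ± 2.05 CPM in WT (adjusted p = 0.00696), and 68.0 ± 1.22 CPM in ADO and 99.7 ± 5.27 CPM in DNT (adjusted p = 1.89e-17; SD, n = 3 each).

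Of 13 receptors for cytokines that induce Ifng, 3 rose and 3 fell with ATPgs, and 5 rose and 4 fell with adenosine, beside the shares of all genes (17.7% and 19.4% with ATPgs, 25.5% and 24.6% with adenosine). Il12rb2, the signalling chain of the IL-12 receptor, rose by 0.59 ± 0.05 with ATPgs and 0.53 ± 0.02 with adenosine, and its partner Il12rb1 fell by 0.54 with ATPgs. Among 7 tested genes of other Janus kinases and class II cytokine receptors, 3 rose and 2 fell with ATPgs and 4 rose and 0 fell with adenosine, beside the same shares of all genes. The type I interferon receptor chain Ifnar1 rose by 0.35 ± 0.04 with ATPgs and 0.22 ± 0.03 with adenosine, against 2.01 and 1.52 for Ifngr1. The other kinases Jak3 and Tyk2 rose by 0.10 ± 0.02 and 0.08 ± 0.03 with adenosine.

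Regulators of Ifng mRNA stability, through AU-rich sites like the one shown above or otherwise, were counted from 10 genes. With ATPgs 4 rose and 2 fell, where 17.7% and 19.4% of all genes did, and with adenosine 4 rose and 4 fell, where 25.5% and 24.6% did. The share that fell with ATPgs was near that of all genes. Zfp36 (tristetraprolin) and Zfp36l2, which bind AU-rich sites and speed decay, rose by 1.21 ± 0.14 and 1.06 ± 0.13 with ATPgs. Zfp36 was at 0.10 ± 0.05 with adenosine (adjusted p = 0.0581), and its ATPgs effect exceeded its adenosine effect by 1.11 ± 0.15 (adjusted p = 7.95e-04). Zfp36l1, of the same family, had a higher mean with adenosine and a lower mean with ATPgs. It was chosen after its values were seen and is given as means only, without a test. It averaged 165 ± 17.3 CPM in ADO and 111 ± 0.43 CPM in DNT, but 90.3 ± 17.3 CPM in WTATPgs and 110 ± 5.11 CPM in WT (SD, n = 3 each). The decay factor Khsrp fell by 0.31 with ATPgs, and Elavl1 (HuR), which stabilises such mRNAs, fell by 0.24 with ATPgs and 0.18 with adenosine. Under the blocker edgeR called 0 of the 25 transcription factors, 0 of the 13 receptors, 0 of the 7 other kinases and receptors and 0 of these 10. At an unadjusted p under 0.05 there were 1, 4, 3 and 2 in these lists. DESeq2 called 0, 1, 2 and 1 of them, and limma-voom called 0 in each. Without R replicate 3 edgeR called 3 higher and 2 lower transcription factors, 1 and 3 receptors, 0 and 2 other kinases and receptors, and 1 and 1 regulators of mRNA stability. That fit also called more of all genes, as given above for the target genes.

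**Figure D3:**
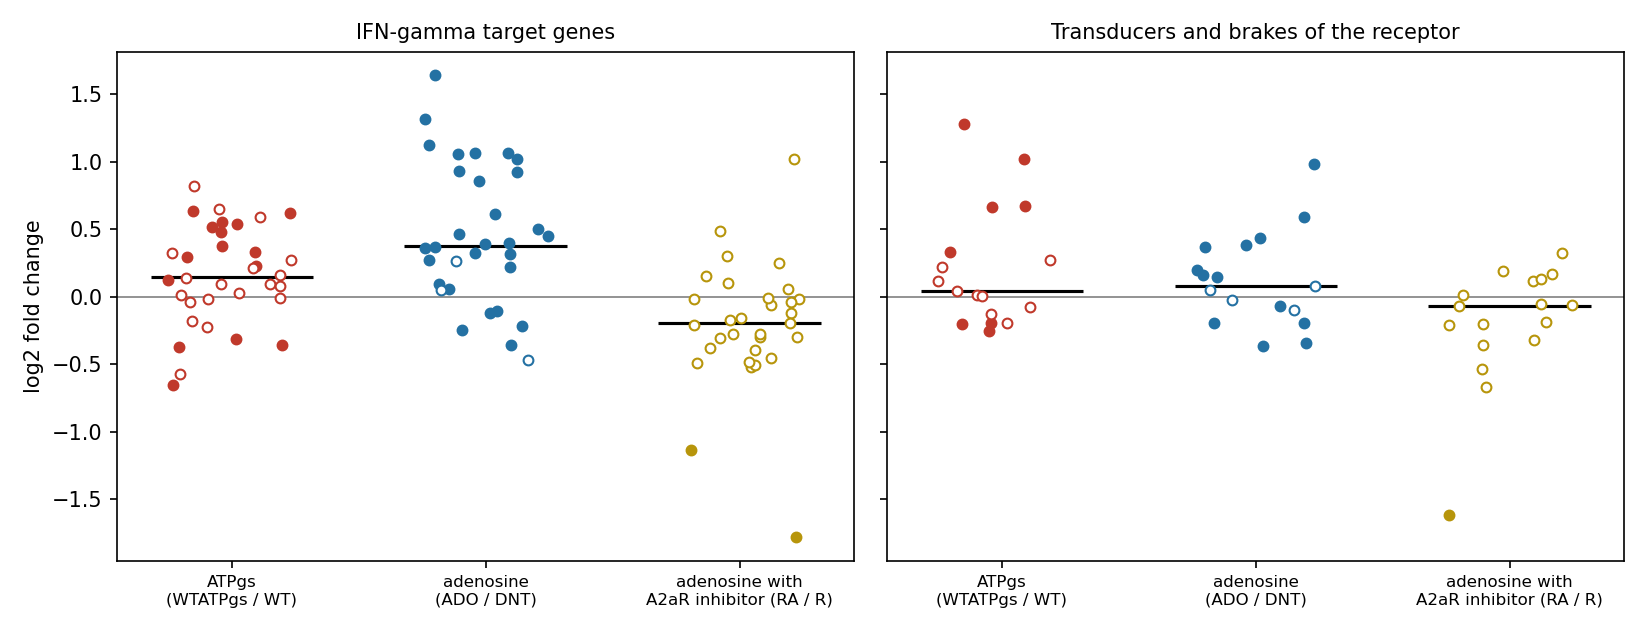
Log2 fold change of every tested target gene of IFN-γ (left) and of every tested transducer or brake of its receptor (right), by ligand comparison. Points are genes, filled where the adjusted p is under 0.05, and bars are list medians. The target genes have a median of 0.38 with adenosine and 0.15 with ATPgs.

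Patterns over all 18 libraries were compared with Ifng and Ifngr1 among 8616 genes, by the root mean square difference of log2 CPM relative to the control mean of each set. Nearest to Ifng were the chemokines Ccl3 (0.211) and Ccl4 (0.245), the death ligand Tnfsf10 (0.246), the carbonic anhydrase Car2 (0.267) and Aebp1 (0.272), against a median over all genes of 0.836. Ccl3 fell by 1.16 with ATPgs and 0.95 with adenosine, and Ccl4 fell by 1.46 and 1.06. Nearest to Ifngr1 were Ier5l (0.192), the thioredoxin-binding protein Txnip (0.228) and Lmtk3 (0.230), against a median of 1.07. Ier5l rose by 2.36 ± 0.14 with ATPgs and 1.67 ± 0.11 with adenosine.

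Macrophages and other myeloid cells carry much Ifngr1, and their transcripts moved in part with it. Of 23 myeloid markers 17 were tested with ATPgs, and 7 rose and 0 fell (median log2 1.38), where 17.7% and 19.4% of all genes did. Their summed level was 279, 280 and 74.1 CPM in WTATPgs, against 70.6, 65.9 and 64.5 CPM in WT. It was near the WT level in WTATPgs replicate 3, which stood apart from replicates 1 and 2 over all genes. Ifngr1 was at 388, 381 and 442 CPM in the same WTATPgs libraries. In fits that left out 1 library each its log2 rise was 1.93 to 2.07. Whether myeloid cells had a part in that rise was not tested. The defining macrophage genes Csf1r and Adgre1 averaged 2.75 and 3.85 CPM in WTATPgs and 0.606 and 1.45 CPM in WT. With adenosine 6 of 9 tested rose and 1 fell (median log2 0.70), where 25.5% and 24.6% of all genes did, and the sum was 37.0 to 42.5 CPM in ADO and 24.3 to 26.8 CPM in DNT. The filter on low counts can keep a gene through a single group. Counts of these low markers therefore lean toward the group in which they are higher. Cd68 averaged 13.5 ± 2.07 CPM in ADO and 8.31 ± 0.57 CPM in DNT, Clec4e 8.06 ± 0.63 and 4.21 ± 0.45 CPM, and Cd14 2.37 ± 0.48 and 0.389 ± 0.145 CPM in the same groups (SD, n = 3 each). Csf1r and Adgre1 averaged 0.118 and 0.324 CPM in ADO and 0.239 and 0.355 CPM in DNT. In set 3 the sum was 74.0 to 81.1 CPM in RA and 78.2 to 96.0 CPM in R.

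Natural killer cells make IFN-γ as well, and 11 markers of natural killer and innate lymphocytes summed to 622 to 746 CPM in WTATPgs and 545 to 548 CPM in WT. They summed to 415 to 426 CPM in ADO, against 259 to 265 CPM in DNT, and to 195 to 198 CPM in RA, against 135 to 217 CPM in R. With ATPgs 2 of 10 tested markers rose and 1 fell, where 17.7% and 19.4% of all genes did, and with adenosine 5 of 8 rose and 2 fell, where 25.5% and 24.6% did. The highest-level markers in set 2 were Klra7 (150 ± 1.91 CPM in ADO and 99.7 ± 3.31 CPM in DNT) and Kit (129 ± 1.31 and 69.9 ± 0.82 CPM), with higher means in ADO (SD, n = 3 each). The defining ones include Klrb1c (2.79 ± 0.32 CPM in ADO and 5.60 ± 1.22 CPM in DNT) and Ncr1 (0.0881 and 0.147 CPM in the same groups), whose means were lower in ADO. B cell markers summed to 85.6 to 203 CPM in WTATPgs and 118 to 124 CPM in WT, with 1 of 17 higher and 0 lower. Of 15 T cell markers, 0 rose and 5 fell with ATPgs, and 8 rose and 4 fell with adenosine. Of 12 tested mitochondrially encoded genes, 7 rose and 0 fell with ATPgs, and 0 rose and 6 fell with adenosine. The B cell, T cell and mitochondrial counts stand beside the same shares of all genes, 17.7% and 19.4% with ATPgs and 25.5% and 24.6% with adenosine. The part of these cell types and of the mitochondrial share in the member results was not tested.

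How far the member values moved with the processing is drawn in the plot of alternatives. The directions of Ifng, Ifngr1, Ifngr2 and Jak2 held under all 15 alternatives in each of the 3 ligand comparisons, while Jak1 under the blocker changed sign without R replicate 3.

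**Figure D4:**
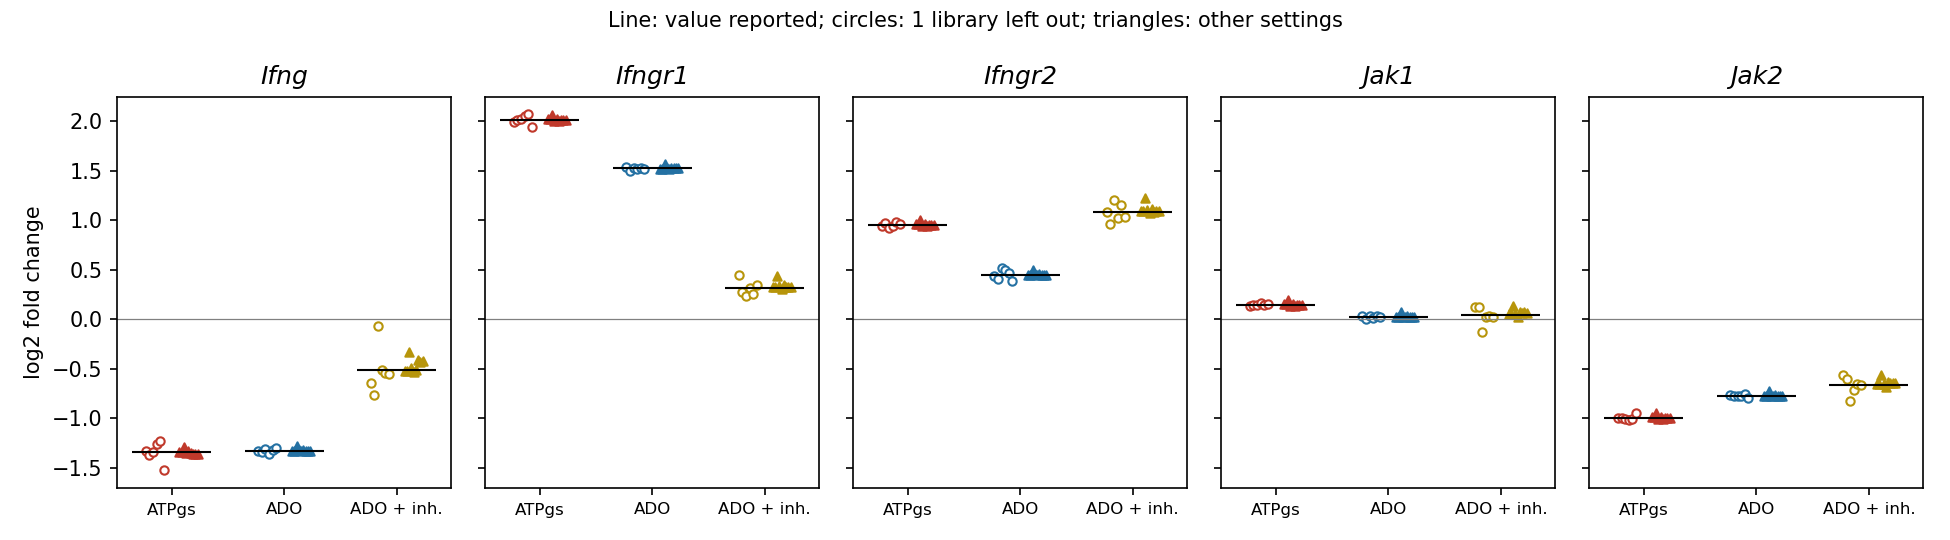
Log2 fold change of the 5 genes under each alternative way of processing the counts and with each library left out, with a line at the value reported. Circles leave out 1 library each and triangles are the other settings. Ifng lies between -1.52 and -1.23 with ATPgs and between -1.35 and -1.28 with adenosine, and between -0.76 and -0.07 with adenosine under the blocker.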

How the data were processed

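RNA of 18 libraries was sequenced. The authors deposited 3 tables of whole-number counts per Ensembl gene, 1 for each set of 6 libraries. Reads were aligned with HISAT2 2.1.0 to GRCm38, per the submitters' processing notes. What counted them, on which annotation and with what strand setting is not given in the sources used here. GENCODE M21 supplied symbols and positions for 99.7%, 99.6% and 99.6% of the IDs in the 3 tables.

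Each ligand was tested within its set with the robust, two-sided quasi-likelihood F test of edgeR 4.0.16 (R 4.3.3), after filterByExpr by group and TMM scaling, and p-values were adjusted by Benjamini-Hochberg over all genes tested, with a threshold of 0.05. Differences between effects were contrasts of 4 group means in fits of 12 libraries. The SE is the size of the log2 fold change divided by the square root of F. CPM values carry the TMM factors. As alternatives served RLE factors, library size only, DESeq2 1.42.0, other filters, a single fit of 18 libraries, a replicate block, limma 3.58.1 (voom, without and with weights per group) and leaving out each library. List counts without a library or with another tool were added after the data were seen. Tests were tested on simulated data.

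The members and gene lists were chosen with earlier results of these data known. From each list the text could name the 4 genes with the smallest p in a ligand comparison, and for likeness the 5 genes nearest to Ifng and the 3 nearest to Ifngr1 with a mean of at least 5 CPM. Genes named beyond that in the difference tests, Tbx21 and Zfp36l1 were chosen after their values were seen. A further gene is not reported here. Promoters are from RefSeq (GRCm38.p6). Figures were drawn in Python 3.11.15 with matplotlib 3.10.9. Reported values use every library. The comparisons rest on 20156082 to 24331577 counts per library.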

Additional observations from a re-analysis of the deposited data

Results flagged for a closer look

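The adenosine effect on Ifngr1 was smaller with the A2aR blocker than without it, as the test of the difference itself showed (log2 difference -1.22 ± 0.14 SE, edgeR adjusted p = 3.52e-04). The rise was 0.32 on the log2 scale with the blocker and 1.52 without it.

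The ATPgs and adenosine effects differed, by the test of the difference, for 4 genes. The ATPgs effect minus the adenosine effect was 0.49 ± 0.07 for Ifngr1 and 0.50 ± 0.12 for Ifngr2 (log2, SE). It was 0.13 ± 0.04 for Jak1 and -0.22 ± 0.05 for Jak2, and the Jak1 call was lost in 12 of 21 alternatives. In each of these tests the effects came from different sets of libraries, so set and treatment cannot be told apart.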

How the results depend on the processing

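Of 435 member values recomputed under alternatives, 389 kept direction and side of the threshold, 26 lost the call, 11 gained it and 9 changed sign; the cause was not tested. With adenosine under the blocker, where 1 of 5 members passed, the count was 2 with DESeq2, 3 with all 18 libraries in a single fit, 0 with RLE factors, with at least 1 CPM in 3 libraries and with voom quality weights, and 0 to 2 with a library left out. For the adenosine effect with minus without the blocker it was 2 with DESeq2, with the 18-library fit and with quality weights, and 1 to 3 with a library left out. The Ifng difference was 0.90 with quality weights (adjusted p = 0.00827; 1.71e-06 to 0.459 over 21 alternatives) and 0.61 to 1.30 with a library left out. For ATPgs minus adenosine the count was 0 in the 18-library fit and 3 to 5 with a library left out. The Ifng value there ran from -0.20 to 0.09, and its sign turned to 0.060, 0.089, 0.0063 and 0.017 without WTATPgs replicates 1 or 2, WT replicate 1 or ADO replicate 1. Jak1 changed sign under the blocker (-0.13 without R replicate 3, and up to 0.13 with another library left out) and in the difference (-0.0026 with at least 1 CPM, -0.0012 without ADO replicate 2, and -0.10 without R replicate 3 to 0.15), as did Jak2 in the difference (-0.0019 without R replicate 3, up to 0.22). The Jak1 rise with ATPgs lost its call in the 18-library fit and without WT replicate 1, and Jak1 passed with adenosine under library size only (log2 0.07, adjusted p = 0.00616). Of 25 neighbouring levels, 10 overlapped, and 5 with library size only.

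Over all genes, calls under the blocker were 147, against 533 with DESeq2, 485 without a filter, 73 with library size only, 1778 in the 18-library fit and 36 to 1719 with a library left out. In the difference with the blocker they were 605, against 1388 with DESeq2, 240 with library size only, 1009 in the 18-library fit and 280 to 3050 with a library left out. The 18-library fit called 3299 with ATPgs, 2309 with adenosine and 302 between them, where the reported fits called 5612, 7281 and 2724; without WTATPgs replicate 3 the last was 5367. With library size only, 3226 genes were higher and 2331 lower with ATPgs, against 2678 and 2934, and under the blocker the median log2 fold change of all genes was 0.09 against -0.04.

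Same-numbered libraries did not deviate together (correlations of -0.26 to 0.07), so the numbers are not treated as pairs. With a replicate block, calls were 4792 with ATPgs, 7398 with adenosine, 134 under the blocker, 160 in the difference with the blocker and 2215 between ligands. Under the block the member counts were 5, 4, 0, 1 and 3, and Ifngr2 with the blocker present was 1.08 with adjusted p = 0.0774.

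The separate tables, 3 libraries a group and the wide spread of R limit these results, and Ifngr2 rests on as few as 51 counts.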
